A study of Mus musculus with 8 samples.

Results

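The genes described here encode the core proteins of programmed cell death and survival: the Bcl2 family, the caspases, the inhibitors of apoptosis, the death receptors with their adaptors, and p53 with its ubiquitin ligase. They were chosen by gene symbol from the array annotation. Of 38 listed genes, 36 had a probe set with exactly 1 gene symbol, out of 19938 genes measured in this way, and Bax and Trp53 were not analysed here. A gene with several probe sets was represented by the one with the highest mean over the 8 arrays.

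The RNA was from cumulus oocyte complexes of mice, in which cumulus granulosa cells surround an oocyte. PRKO mice carried a lacZ insertion in both copies of the progesterone receptor gene, Pgr, which disrupts transcription of both receptor isoforms. The control mice, labelled PR+/- and called PRhet here, carried the same insertion in a single copy. All mice were 21 to 23 days old, received 5 IU of equine chorionic gonadotropin and, 44 to 47 h later, 5 IU of human chorionic gonadotropin (hCG), and gave complexes 8 h after hCG. Each genotype had 4 arrays, each from complexes pooled over 3 animals, so the values average over animals and over the cell types of a complex, and fewer cells of a type cannot be told apart from less RNA per cell. The insertion is not restricted to one cell type, and the controls are not wild type.

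Apoptosis can start at the mitochondrion or at the cell surface. In the mitochondrial route, BH3-only proteins release the pore formers BAX and BAK1 from their inhibitors BCL2, BCL-XL and MCL1, and cytochrome c then assembles with APAF1 and caspase 9 into the apoptosome, which activates executioner caspases. In the surface route, receptors of the tumour necrosis factor family recruit FADD and caspase 8. Granulosa cells are known to die by apoptosis in follicles that become atretic, and progesterone and its receptor have been studied as survival signals in periovulatory granulosa cells. The comparison addresses how far transcripts of this machinery differ when the receptor gene is disrupted.

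Of the 36 genes, 1 passed the threshold, Casp9, which rose 1.27-fold in PRKO complexes. This is 2.78% of the genes, against 2.92% of all genes (limma, Benjamini-Hochberg adjusted p under 0.05 over all probe sets tested), so the share of apoptosis genes called lay near the background. In the upward direction, 1.43% of all genes passed. None of the 36 fell, where 1.48% of all genes passed downward. At an adjusted p under 0.1 the count stayed at 1, against 4.67% of all genes. The 95% limits of all 36 differences lay within 1.5-fold of no change, which held for 92.9% of all genes. Within 1.25-fold of no change lay the limits of 19 of the 36 (52.8%), against 52.9% of all genes. The median difference was 0.04 (log2, PRKO minus PRhet), against 0.0043 over all genes. A signal filter that dropped the dimmer probe sets, those under the median, kept 27 of the 36 genes. Their median difference was 0.0429, against 0.0481 over all 9869 genes kept, so this gap was not seen among brighter genes. Without the filter, the median size of a difference regardless of sign was 0.08, against 0.10 over all genes. With 4 arrays a genotype, a change much smaller than the limits given would not have been detectable.

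**Figure D1:**
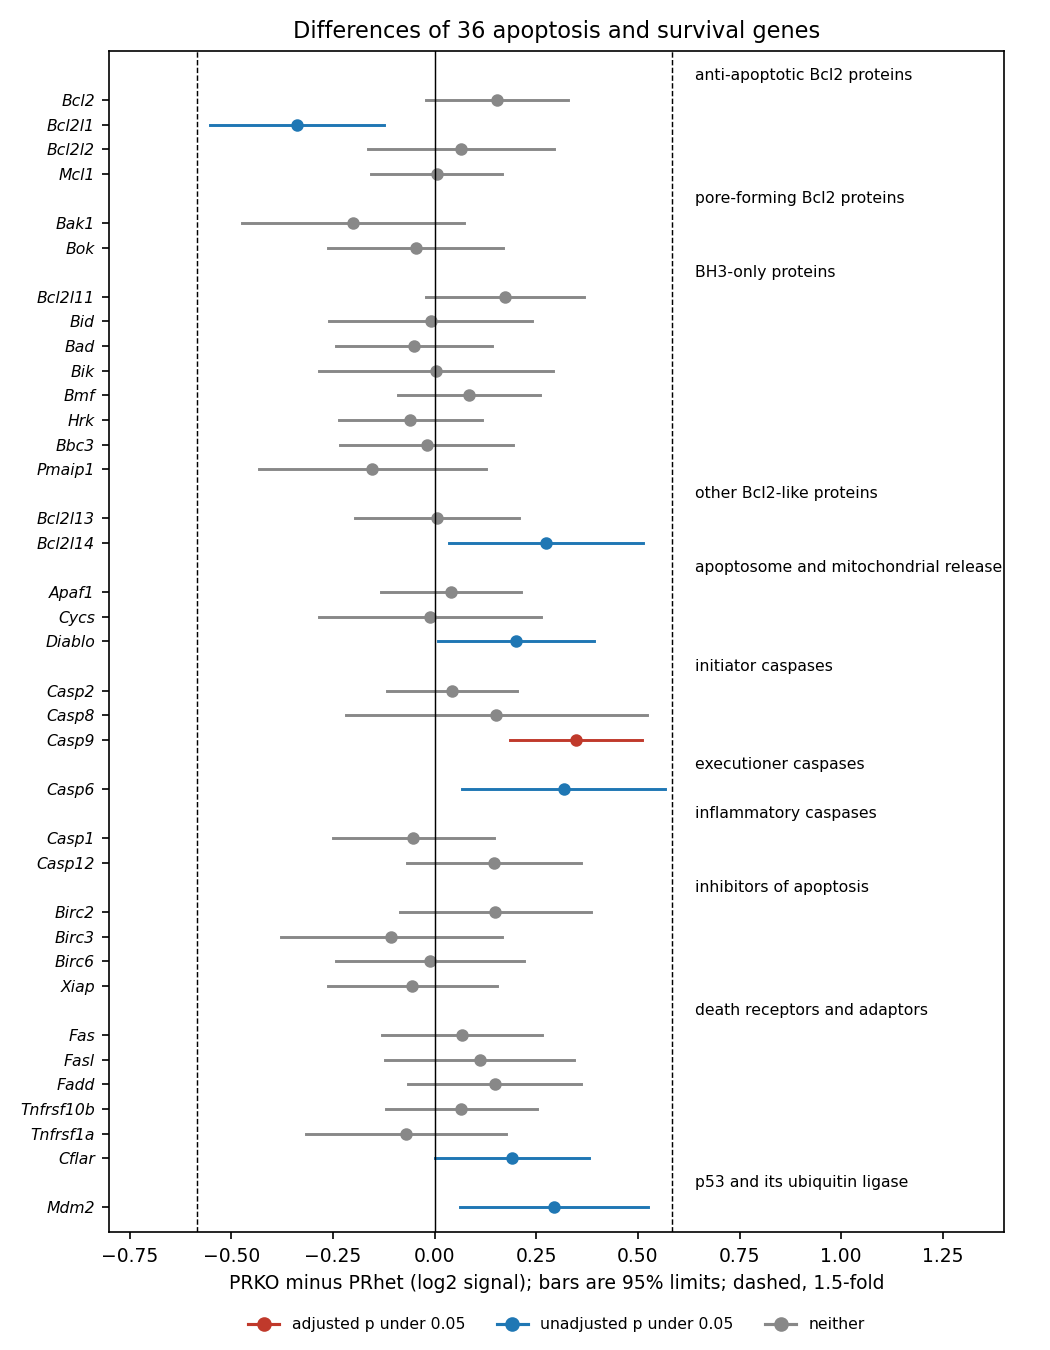
PRKO minus PRhet differences (log2 signal, x axis) of the 36 apoptosis and survival genes, grouped by role, with 95% limits from limma over 4 PRKO and 4 PRhet arrays. Casp9 is the 1 gene past an adjusted p of 0.05, 6 others have an unadjusted p under 0.05, and every bar lies inside the dashed lines at 1.5-fold.

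The promoter sequences of the 2 genes with the lowest p, Casp9 and Bcl2l1, are shown because the study removes a DNA-binding receptor. Both are RefSeq sequence of build GRCm38.p6 and cover the 250 bases before the annotated transcript start, 5′ to 3′ on the gene's strand. Capitals mark matches to the letters GGGCGG (a GC box) or TGTTCT (the half-site that the progesterone and glucocorticoid receptors share) on either strand. These 2 motifs cannot overlap each other. The Casp9 stretch is chr4:141793362-141793611 on the plus strand, and the Bcl2l1 stretch, at the outermost of 3 listed starts, is chr2:152831729-152831978 on the minus strand.
Casp9: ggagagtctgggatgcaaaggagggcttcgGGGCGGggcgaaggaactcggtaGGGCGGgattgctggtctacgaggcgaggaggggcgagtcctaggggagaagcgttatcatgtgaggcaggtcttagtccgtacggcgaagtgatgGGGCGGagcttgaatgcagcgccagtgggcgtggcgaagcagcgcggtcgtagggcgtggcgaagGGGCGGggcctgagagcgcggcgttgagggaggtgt
Bcl2l1: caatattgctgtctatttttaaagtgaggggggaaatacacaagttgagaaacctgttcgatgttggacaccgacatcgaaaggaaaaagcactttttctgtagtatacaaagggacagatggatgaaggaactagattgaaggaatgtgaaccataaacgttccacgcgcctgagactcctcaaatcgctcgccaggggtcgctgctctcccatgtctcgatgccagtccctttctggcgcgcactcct
The Casp9 stretch held 4 GC box matches and no half-site match, and the Bcl2l1 stretch held neither. Of all 32851 promoters of this length in the table, 32.7% held a GC box and 16.1% a half-site. Promoters were listed for 33 of the 36 genes, 45 promoters in all. Of these, 57.8% held a GC box and 13.3% a half-site. A match is a description of letters in this window only.

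Casp9 encodes the initiator caspase that the apoptosome activates. Its log2 signals in PRKO replicates 1 to 4 were 8.16, 8.07, 8.20 and 8.22, against 7.90, 7.81, 7.76 and 7.78 in PRhet replicates 1 to 4. All PRKO arrays lay above all PRhet arrays, and the spread within each genotype was small. The means were 8.16 ± 0.07 in PRKO and 7.82 ± 0.06 in PRhet (SD, n = 4 arrays each), a difference of 0.35 ± 0.07 (SE) with 95% limits of 0.18 to 0.51 and a limma adjusted p of 0.0307. A two-sided exact permutation test over the 70 arrangements of the arrays gave p = 0.0286, the smallest this design allows. Every gene whose genotypes do not overlap reaches this permutation p, which is 10.2% of all genes, so it adds nothing to the lack of overlap. Adjusted over all probe sets of the array, those without a single symbol included, the limma p of Casp9 was 0.0682. The call ended in 6 of the 8 fits that left out a single array, all but those without PRKO replicate 2 or PRhet replicate 1, with limma adjusted p from 0.0582 to 0.0894 and differences of 0.33 to 0.35. Of 9 measured theca and stroma markers, 8 had positive differences, and the other, Cyp17a1, was at -0.08 ± 0.31 (SE). In limma 0 of the 9 passed, and 4 had an unadjusted p under 0.05 (44.4%, against 16.0% of all genes). The mean signal of the 9 spanned 5.72 to 6.31 in PRKO and 5.62 to 5.95 in PRhet. With that mean as a covariate the Casp9 difference was 0.34 with a limma adjusted p of 0.125.

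The other initiator caspases did not pass. Casp2, linked to DNA damage and to the loss of oocytes in mice, had a difference of 0.04 ± 0.07 (SE). Casp8, the caspase of the death receptors, was at 0.15 ± 0.17, with the widest limits of the 36, -0.22 to 0.52. Its PRhet arrays spanned 6.49 to 7.42 and enclosed the PRKO arrays at 6.91 to 7.38.

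Casp6, which encodes an executioner caspase, had the second highest difference of the 36 and did not pass. Its signals were 7.80, 7.80, 7.81 and 8.01 in PRKO replicates 1 to 4, against 7.67, 7.76, 7.49 and 7.22 in PRhet replicates 1 to 4. The genotypes did not overlap, though the highest PRhet array came close to the lowest PRKO array. The difference was 0.32 ± 0.11 (SE; limma adjusted p = 0.191). The genes of the inflammatory caspases, Casp1 and Casp12, were at -0.05 ± 0.09 and 0.15 ± 0.10, and their signals lay below the lower quartile of every array (3.92 to 4.00), so whether they exceeded background is unknown.

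Apaf1 and Cycs encode the scaffold of the apoptosome and the cytochrome c that triggers it, and Diablo a mitochondrial protein that relieves caspases of their inhibitors. Apaf1 had a difference of 0.04 ± 0.08 (SE), with limits of -0.13 to 0.21. Cycs was at -0.01 ± 0.13. Diablo had signals of 6.15, 6.16, 6.12 and 6.15 in PRKO replicates 1 to 4, against 6.09, 5.91, 5.73 and 6.04 in PRhet replicates 1 to 4. Every PRKO array lay above every PRhet array, with PRKO values close together and PRhet values spread. The Diablo difference of 0.20 ± 0.09 did not pass (limma adjusted p = 0.290).

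Bcl2l1, which encodes the survival protein BCL-XL and, by splicing, the pro-apoptotic BCL-XS, had the largest negative difference of the 36. Its signals were 7.10, 6.99, 6.99 and 6.88 in PRKO replicates 1 to 4, against 7.55, 7.16, 7.40 and 7.21 in PRhet replicates 1 to 4. The highest PRKO array lay below the lowest PRhet array. The means were 6.99 ± 0.09 in PRKO and 7.33 ± 0.18 in PRhet (SD, n = 4 each), and the difference of -0.34 ± 0.10 (SE) had limits of -0.55 to -0.13 and did not pass (limma adjusted p = 0.102; two-sided exact permutation p = 0.0286). With the mean of the oocyte markers as a covariate the difference was -0.36 and passed, at a limma adjusted p of 0.0460. That marker mean spanned 6.28 to 6.83 in PRKO and 6.19 to 6.96 in PRhet, and the part of either isoform in the probe set's signal was not analysed here.

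The other anti-apoptotic genes did not pass and had small differences. Mcl1, a short-lived survival protein that many cells depend on, was at 0.00 ± 0.07 (SE), with means of 10.15 ± 0.07 in PRKO and 10.14 ± 0.05 in PRhet (SD, n = 4 each) and limits of -0.16 to 0.17. Bcl2 itself was at 0.15 ± 0.08 and Bcl2l2, which encodes BCL-W, at 0.06 ± 0.11. The 2 measured pore formers were Bak1 at -0.20 ± 0.13 and Bok at -0.05 ± 0.10, and neither passed.

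Of the 8 genes of BH3-only proteins, the sensors that couple stress to the mitochondrion, 0 passed in limma and 0 had an unadjusted p under 0.05. Their differences ran from -0.15 to 0.17 with a median of -0.01. Bcl2l11, which encodes BIM, a target of FoxO factors in other cells, was highest at 0.17 ± 0.09 (SE), and Bmf, released from the cytoskeleton, was at 0.08 ± 0.08. Pmaip1 (NOXA) and Bbc3 (PUMA), classical p53 targets, were at -0.15 ± 0.13 and -0.02 ± 0.10. Bid, the link from caspase 8 to the mitochondrion, Bad, which survival kinases hold in check, Bik and Hrk lay between -0.06 and 0.00.

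Among Bcl2-like genes of less settled function, Bcl2l13 was at 0.01 ± 0.09 (SE). Bcl2l14 had signals of 4.06, 4.50, 4.08 and 4.23 in PRKO replicates 1 to 4, against 4.04, 3.96, 4.01 and 3.75 in PRhet replicates 1 to 4. The genotypes did not overlap, with 0.27 ± 0.11 between them (limma adjusted p = 0.240), but the values lay near the lower quartile of the arrays and fell below it on 2 of 8.

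The inhibitors of apoptosis bind caspases or act as ubiquitin ligases on death receptor complexes. None of the 4 passed in limma, and 0 had an unadjusted p under 0.05. Birc2 and Birc3, which encode cIAP1 and cIAP2, were at 0.15 ± 0.11 and -0.11 ± 0.12 (SE). Birc6, a very large ubiquitin ligase, was at -0.01 ± 0.11, and Xiap, which blocks caspase 9 and the executioners directly, at -0.06 ± 0.10. Birc2, Birc3, Casp1 and Casp12 lie on chromosome 9 near Pgr itself, with 5, 4, 23 and 21 annotated protein-coding genes between them and Pgr in RefSeq order, and none of these 4 passed.

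On the death receptor side, Fas was at 0.07 ± 0.09 (SE) and its ligand gene Fasl at 0.11 ± 0.11. Their signals lay below the lower quartile on 8 and 7 of the 8 arrays. Fadd, the adaptor that joins Fas to caspase 8, was at 0.15 ± 0.10. The receptors for TRAIL and for tumour necrosis factor, Tnfrsf10b and Tnfrsf1a, were at 0.07 ± 0.09 and -0.07 ± 0.11, and none of these 5 passed.

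Cflar encodes the FLIP protein, which resembles caspase 8 but cannot cut and so restrains it. By its brightest probe set the signals were 8.10, 8.04, 8.16 and 8.02 in PRKO replicates 1 to 4, against 7.93, 7.93, 8.02 and 7.70 in PRhet replicates 1 to 4. The genotypes did not overlap by a narrow margin, and the difference of 0.19 ± 0.09 (SE) did not pass (limma adjusted p = 0.312). Probe set numbers on this array follow the genome: 96.8% of 21698 probe sets have a gene on the chromosome most common among their 10 neighbours on either side. Cflar is a gene of chromosome 1, but 19 of the 20 neighbours of its brightest probe set belong to chromosome 3. The other 2 Cflar probe sets stand among genes of chromosome 1, and there the differences were -0.05 ± 0.12 and 0.02 ± 0.10.

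The same check over all 36 genes found 1 other case, Cycs, a gene of chromosome 6 known for its processed pseudogenes. Its brightest probe set stands among genes of chromosome 5 and a further one among genes of chromosome 19. The Cycs probe set among genes of chromosome 6 gave 5.82 ± 0.18 in PRKO and 5.67 ± 0.17 in PRhet (SD, n = 4 each), a difference of 0.14 ± 0.11 (SE) that did not pass. Both Birc2 probe sets stand among genes of chromosome 9, and the second gave 0.04 ± 0.10. The other 33 genes had 1 probe set each.

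**Figure D2:**
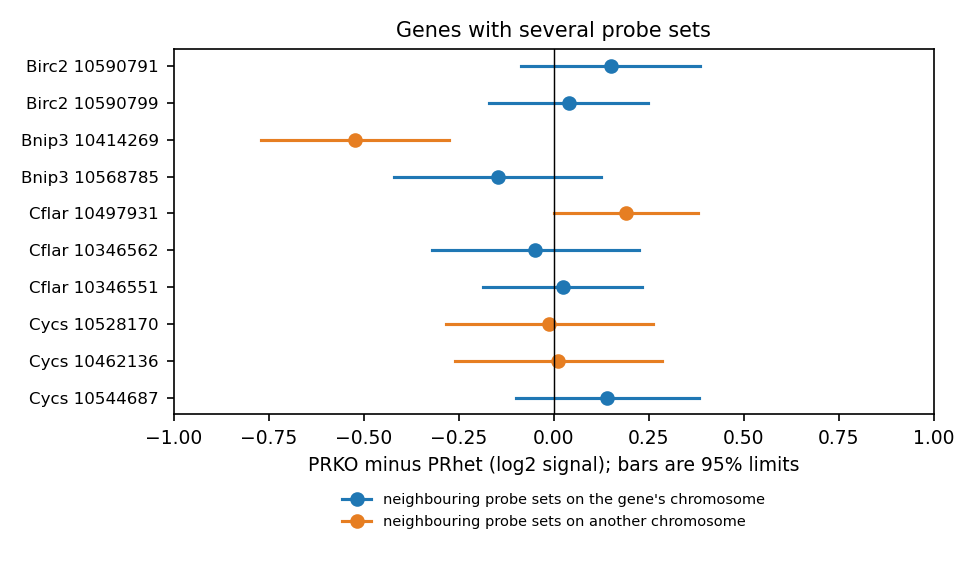
PRKO minus PRhet differences (log2 signal, x axis, with 95% limits) of each probe set of Birc2, Bnip3, Cflar and Cycs. Orange marks probe sets whose neighbours in numbering belong to another chromosome than the gene. For Cflar and Bnip3 the orange probe set, at 0.19 and -0.52, lies farther from 0 than the blue ones, at -0.05 and 0.02 for Cflar and -0.15 for Bnip3.

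Mdm2 encodes the ubiquitin ligase that degrades p53 and is itself a p53 target. Its signals were 8.10, 8.12, 8.38 and 8.38 in PRKO replicates 1 to 4, against 8.11, 7.75, 8.07 and 7.87 in PRhet replicates 1 to 4. The lowest PRKO array lay just below the highest PRhet array, and the difference was 0.29 ± 0.11 (SE; limma adjusted p = 0.190; two-sided exact permutation p = 0.0571).

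In all, 7 of the 36 genes had an unadjusted limma p under 0.05 (19.4%, against 16.0% of all genes). Differences were positive for 6 of them, Casp9, Casp6, Mdm2, Bcl2l14, Diablo and Cflar, where 9.30% of all genes were higher at this p. The difference was negative for 1, Bcl2l1, where 6.72% of all genes were lower. For 6 of the 36 (16.7%) the genotypes did not overlap, against 10.2% of all genes. In fits that left out a single array the count ran from 6 to 10. It was highest without PRhet replicate 1, at 10 (27.8%, against 13.9% of all genes without that array). Without PRKO replicate 3 or 4 or PRhet replicate 2, 3 or 4 it stayed at 6 (16.7%, against 12.9% to 15.1% of all genes). With the signal filter the count was 5 of 27 (18.5%, against 15.1% of all genes kept). With probe sets on the gene's own chromosome, a choice made after seeing the data, the count was 5 of 36 (13.9%, against 10.2% of all genes), since Cflar then drops out.

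**Figure D3:**
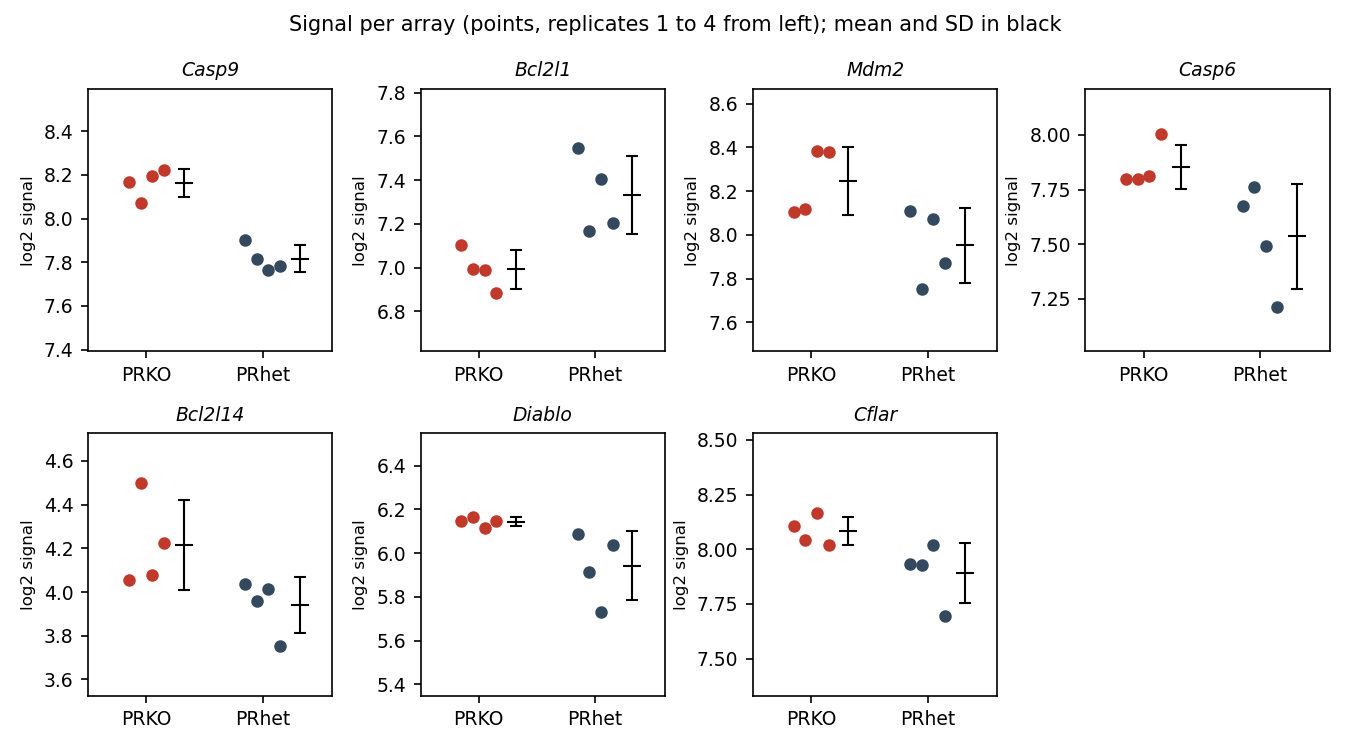
Log2 signal (y axis) per array for the 7 apoptosis and survival genes with an unadjusted limma p under 0.05, PRKO and PRhet (n = 4 arrays each), with the mean and SD beside the points. Each panel spans the same range of log2 units. The genotypes are apart in all panels but Mdm2, and Bcl2l1 is the 1 gene lower in PRKO.

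Lists of 5 neighbouring pathways held 112 further genes, of which 100 were measured. None rose in limma, where 1.43% of all genes passed upward. The 5 that fell were 5% of the measured genes, against 1.48% of all genes downward and 2.92% in either direction. With all probe sets in the adjustment, Ddit4 alone of these 5 passed, and the limma adjusted p of the others was 0.0595 to 0.104. Without moderation none of the 5 passed (limma adjusted p from 0.0723 to 0.167). An unadjusted p under 0.05 was found for 17 of the 100 (17%, against 16.0% of all genes), 8 with positive and 9 with negative differences. The lists were chosen with earlier results of these data known, so their counts are descriptions.

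Ddit4, a p53 and hypoxia target that restrains the growth kinase complex mTORC1, changed most. Its signals were 8.27, 8.61, 8.95 and 8.90 in PRKO replicates 1 to 4, against 9.91, 9.81, 9.62 and 9.77 in PRhet replicates 1 to 4. Every PRKO array lay far below every PRhet array, and Ddit4 fell by 1.10 ± 0.14 (log2, SE), or 2.14-fold (limma adjusted p = 0.00117). Of 20 alternative fits, the call ended in the one without moderation of the spread, at an adjusted p of 0.0723 from the unmoderated limma fit. It was the 1 of 21 measured p53 target and partner genes that passed (4.76%, against 2.92% of all genes). Eda2r (0.30 ± 0.12), Gadd45a (0.29 ± 0.15) and Cradd (-0.17 ± 0.09) had the largest other differences and did not pass.

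In the list of PI3K, AKT and FoxO survival signalling, 2 of 23 measured genes fell and 0 rose (8.7% called, against 2.92% of all genes). Foxo3, a transcription factor that survival kinases keep out of the nucleus, had signals of 7.78, 7.73, 7.70 and 7.59 in PRKO replicates 1 to 4, against 8.42, 8.15, 8.27 and 7.96 in PRhet replicates 1 to 4. The genotypes did not overlap, and Foxo3 fell by 0.50 ± 0.10 (SE), or 1.42-fold (limma adjusted p = 0.0208). Bag1, a co-chaperone that binds BCL2, had signals of 8.36, 8.39, 8.18 and 8.44 in PRKO replicates 1 to 4, against 8.79, 8.93, 8.65 and 8.72 in PRhet replicates 1 to 4. Bag1 fell by 0.43 ± 0.09, or 1.35-fold (limma adjusted p = 0.0261), again with no overlap. Foxo1 (-0.37 ± 0.13), Pim1 (0.34 ± 0.16) and Igf1r (-0.29 ± 0.12) did not pass. The Foxo3 call ended without PRKO replicate 2, 3 or 4 or PRhet replicate 1 or 3, where the limma adjusted p reached 0.0706. The Bag1 call ended without PRKO replicate 2 or 3 or PRhet replicate 1 or 2, where it reached 0.0840. With the theca and stroma marker mean as a covariate the differences were close to these, -0.48 for Foxo3 and -0.42 for Bag1, with limma adjusted p of 0.107 and 0.115.

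Among 20 measured genes of tumour necrosis factor and death receptor signalling, Tnfrsf21 alone passed, and it fell (5% called, against 2.92% of all genes). It encodes death receptor 6. Its signals were 5.07, 5.20, 5.10 and 5.27 in PRKO replicates 1 to 4, against 5.92, 5.51, 5.69 and 5.61 in PRhet replicates 1 to 4. The groups did not overlap, and Tnfrsf21 fell by 0.52 ± 0.10 (SE), or 1.44-fold (limma adjusted p = 0.0139). The adjusted p in limma was 0.0526 without PRKO replicate 3 and 0.104 at most over the alternatives. Faim, a Fas apoptosis inhibitor (0.43 ± 0.12), the TWEAK receptor gene Tnfrsf12a (0.40 ± 0.14) and the necroptosis kinase gene Ripk3 (0.26 ± 0.08) did not pass, with limma adjusted p of 0.0848, 0.170 and 0.143.

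Of 23 other measured core apoptosis genes, 1 passed (4.35%, against 2.92% of all genes). This was Bnip3, a mitochondrial protein of hypoxia and mitophagy, which passed by its brightest probe set alone. The Bnip3 call also ended without PRKO replicate 1, 2 or 3 or PRhet replicate 1, 2 or 3, at a limma adjusted p of up to 0.0914. The brightest probe set had signals of 7.91, 8.28, 8.13 and 8.32 in PRKO replicates 1 to 4, against 8.79, 8.83, 8.66 and 8.44 in PRhet replicates 1 to 4, a difference of -0.52 ± 0.11 (SE; limma adjusted p = 0.0309). Bnip3 is a gene of chromosome 7, but all 20 neighbours of this probe set belong to chromosome 14. The Bnip3 probe set among genes of chromosome 7 had means of 7.64 ± 0.13 in PRKO and 7.78 ± 0.27 in PRhet (SD, n = 4 each), and its difference of -0.15 ± 0.12 did not pass (limma adjusted p = 0.631). Aifm2 (0.28 ± 0.14), Bcl2l10 (-0.27 ± 0.24), a Bcl2-like gene of the oocyte, and Birc5 (-0.17 ± 0.11), which encodes survivin, did not pass. Of 13 endoplasmic reticulum stress genes, 0 passed in limma and 5 had an unadjusted p under 0.05 (38.5%, against 16.0% of all genes). Of these 5, 3 were higher and 2 lower in PRKO, as were 9.30% and 6.72% of all genes at this p. The largest differences in the list were Atf3 (0.45 ± 0.33), Ern1 (-0.31 ± 0.11) and Chac1 (0.27 ± 0.12). Atf3 was not among the 5, at an unadjusted limma p of 0.202.

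**Figure D4:**
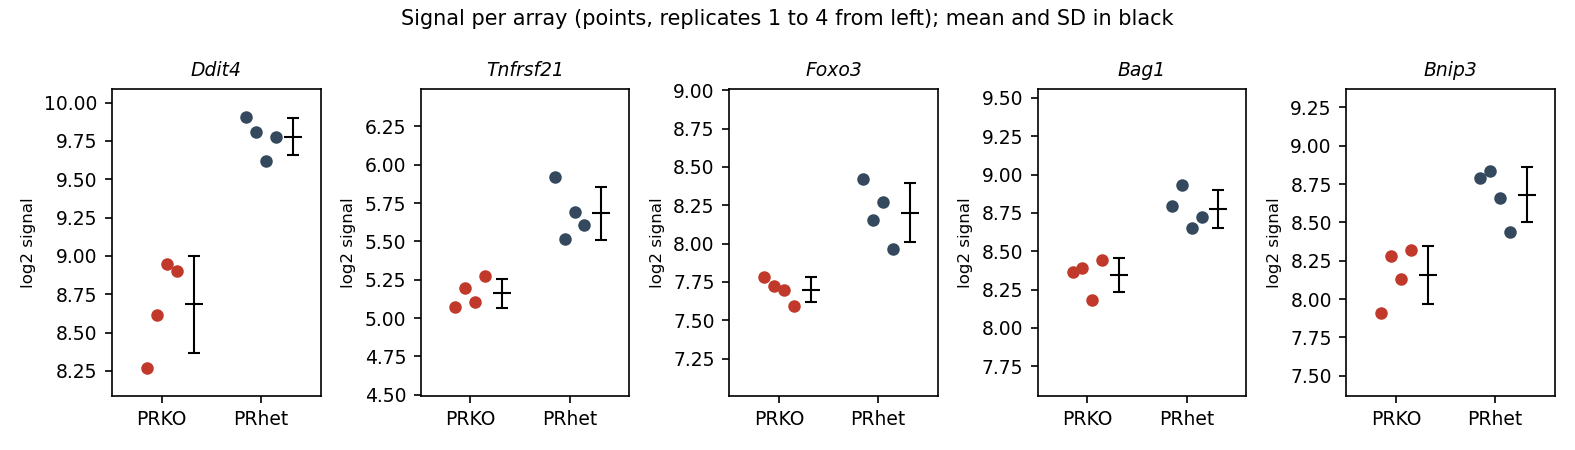
Log2 signal (y axis) per array for the 5 pathway genes that passed, PRKO and PRhet (n = 4 arrays each), with mean and SD beside the points. All 5 are lower in PRKO with no overlap, Ddit4 by 1.10 and the others by 0.43 to 0.52, and Bnip3 is drawn by the probe set that stands among genes of chromosome 14.

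As a check of the series, Pgr had signals of 5.69 ± 0.40 in PRKO and 6.78 ± 0.57 in PRhet (SD, n = 4 each), with 1 overlapping pair of arrays and a limma adjusted p of 0.0452. The Pgr call ended in 10 of 20 alternative fits. Among these were the fits without PRKO replicate 1, 2 or 3 or PRhet replicate 2, 3 or 4, at a limma adjusted p of up to 0.130. The limma adjusted p was 0.247 without moderation, 0.143 with all probe sets in the adjustment and 0.0753 with an intensity trend in the moderation. The Pgr call also ended with the theca and stroma marker mean as a covariate. Where its probe set lies relative to the insertion was not analysed here. Among markers, Fshr of granulosa cells fell by 1.06 ± 0.15 (log2, SE; limma adjusted p = 0.00221), and was the 1 of 11 measured cumulus and granulosa markers that passed. The 11 differences were 6 positive and 5 negative, with a median of 0.03. An unadjusted limma p under 0.05 was found for 3 of the 11, all lower in PRKO (27.3%, against 6.72% of all genes lower). Besides Fshr these were Foxl2 (-0.33 ± 0.11) and Nr5a2 (-0.30 ± 0.10), which did not pass. Kdr of endothelium rose by 0.80 ± 0.15 (limma adjusted p = 0.0126), which was 0.0512 without PRKO replicate 3 and 0.0508 without PRhet replicate 3. It was the 1 of 8 endothelial markers that passed, with 4 positive and 4 negative differences and a median of 0.01. The mean of the 8, Kdr included, spanned 5.03 to 5.17 in PRKO and 4.97 to 5.01 in PRhet. Of the 8, Kdr alone had genotypes that did not overlap (12.5%, against 10.2% of all genes). The differences of the others ran from -0.29 to 0.32, and a mean without Kdr was not analysed here. Array medians lay between 5.35 and 5.46. None of the 13 oocyte and 11 measured cumulus and granulosa markers lay below the lower quartile on 4 or more arrays, while 4 of 9 measured leukocyte markers did (Ptprc, Adgre1, Itgam and S100a8). The leukocyte marker mean spanned 4.25 to 4.37 in PRKO and 4.26 to 4.35 in PRhet. The part of other cell types in the differences above was not tested beyond the covariate fits given.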

How the data were processed

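Affymetrix whole-transcript arrays read biotin-labelled cRNA from 4 PRKO and 4 PRhet pools. The authors deposited a log2 signal for each probe set on each array, made with Partek per the submitters' processing notes. The background correction and normalization steps were not given in the sources used here. That the base is 2 was judged from the range, 1.19 to 14.08, because a scanner could not record the top value in a natural or decimal base. Of 35556 probe sets, the 21789 with exactly 1 symbol were tested with limma 3.58.1 in R 4.3.3 (lmFit and eBayes, prior degrees of freedom 6.04), two-sided, with no filter and Benjamini-Hochberg adjustment over all of them. The fit was checked on simulated data with normal noise drawn independently for each gene and array. That check therefore does not cover correlated genes or outlying arrays. Single genes were also tested by exact permutation. Tables were made with pandas 2.3.3 and numpy 2.4.6 under Python 3.11.15, and plots with matplotlib 3.10.9. The number of arrays limits the precision.

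Genes given array by array were those of the 36 past the threshold, with an unadjusted p under 0.05 or with genotypes that did not overlap. From each pathway list, genes past the threshold and up to 3 others by size of difference were named. The genes, lists and rules were chosen with earlier results of these data known. Alternatives were a replicate block, quantile normalization, centring, a signal filter, other moderation, array weights, each array left out, other probe set rules, an adjusted p under 0.1, and marker means as covariates. Chromosomes and gene order came from RefSeq for GRCm38.p6, whose gene identifiers matched 21698 probe sets.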

Additional observations from a re-analysis of the deposited data

Results flagged for a closer look

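Single arrays stood apart from the other 3 of their genotype for 5 genes, by a gap above Dixon's 95% critical value for a group of 4. Chance alone gives about 1 in 20 such groups, and 82 groups of 4 arrays were checked. Casp6 in PRKO replicate 4 was high at 8.01, where the next array was at 7.81. Pmaip1 in PRKO replicate 1 was low at 5.05, where the next was at 5.46. PRhet replicate 1 accounted for the other 3: Bak1 was high there at 7.35 (next 7.04), Casp1 high at 3.01 (next 2.75) and Bcl2l2 low at 6.80 (next 6.91).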

How the results depend on the processing

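No apoptosis gene other than Casp9 rose under any alternative run, and Bcl2l1 fell in the fit with oocyte markers as a covariate only, where the count of lower genes was 1. The count of higher genes was 0 with all probe sets in the adjustment, with the theca and stroma marker mean in the model and with a replicate block, and 0 to 1 when single arrays were left out. The Casp9 difference stayed between 0.31 and 0.38 in 20 alternative fits, with limma adjusted p from 0.0164 to 0.125. The block gave Casp9 a limma adjusted p of 0.0510. The genotypes share replicate numbers in the labels, with no stated pairing. Deviations of same-numbered arrays correlated at 0.08 to 0.15 over probe sets, and 2 of 4 PRKO arrays correlated best with their own number. The 582 genes called in all became 206 with all probe sets, 106 without moderation, 285 with the theca and stroma covariate, 932 at an adjusted p under 0.1, and 301 to 532 without single arrays. Of the 36 genes, those whose genotypes did not overlap numbered 6 to 10 (16.7% to 27.8%) without single arrays, where 12.9% to 15.3% of all genes did not overlap. After quantile normalization they numbered 4 (11.1%, against 9.54% of all genes). Without moderation, the limma adjusted p was 0.0890 for Fshr and 0.149 for Kdr. The median difference stayed between 0.02 and 0.06. With a probe set on the gene's own chromosome, chosen after seeing the data, the Cflar difference reversed to -0.048, as that setting reads another probe set. Of the 29 genes not given array by array, 0 to 7 changed sign under an alternative and 0 passed.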

Other observations

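Among the 79 measured protein-coding genes within 50 places of Pgr on chromosome 9, 4 rose and 0 fell in limma (5.06%, against 1.43% of all genes upward). Endod1, with 9 genes between it and Pgr, rose by 0.55 ± 0.08 (log2, SE), with means of 8.69 in PRKO and 8.14 in PRhet and a limma adjusted p of 0.00263, and passed in all 20 alternative fits. Sesn3, a sestrin of the FoxO and stress response family with 8 genes between, was at 8.24 in PRKO and 7.90 in PRhet (limma adjusted p = 0.0479). Cfap300 was at 5.06 in PRKO and 4.62 in PRhet (limma adjusted p = 0.0309), and Aasdhppt at 8.30 in PRKO and 7.96 in PRhet (limma adjusted p = 0.0467). The Sesn3 call ended when any single array was left out, and the calls of Cfap300 and Aasdhppt each ended in 6 of the 8 fits without a single array.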
